A study of Mus musculus with 6 samples.

Results

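Contractile fibroblasts were taken as the fibroblast barcodes richest in Acta2 and Tagln, the genes of smooth muscle actin and of the actin-binding protein transgelin. They numbered 463 of 42259 kept barcodes (1.10%) from single-cell RNA libraries of the mouse 4T1 breast cancer model. A barcode was called a fibroblast where unique molecular identifiers (UMIs) of Col1a2 and Dcn together reached 30 per 10000, Rgs5 stayed below 5 per 10000, and Epcam, Krt7, Krt8 and Krt18 together stayed below 12 per 10000. This gave 1388 fibroblasts, and the top 1 in 3 by Acta2 plus Tagln UMIs per 10000, pooled over libraries, were the contractile fibroblasts. The 925 below the limit are called other fibroblasts.

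The study set 3 libraries labelled shPgk1 against 3 libraries labelled shNC. For shPgk1, cells of the 4T1 line, a mouse mammary carcinoma line, carried a lentiviral short hairpin RNA against Pgk1, the gene of the glycolytic enzyme phosphoglycerate kinase. For shNC they carried a non-targeting hairpin. Both kinds were under lentivirus for 48 h and in puromycin at 2 ug/mL for 7 days, and suspensions went onto the TaiM4 droplet platform. The labels name 4T1 cells and breast cancer tissue and give no host animal, strain or age, while the libraries also held barcodes with macrophage, pericyte and fibroblast genes. No label says whether the fibroblasts themselves carried a hairpin.

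Fibroblasts of tumours take several forms. Myofibroblastic cells build actin stress fibres under TGF-beta and tissue tension, and lay down and contract collagen matrix. Inflammatory ones secrete cytokines, chemokines and acute phase proteins. In muscle-like cells, serum response factor binds the CArG box in promoters of actin and myosin genes, with the actin-sensing myocardin-related factors as partners, and TEAD factors with YAP bind the core GGAATG. Lrrc15, a membrane protein induced by TGF-beta in human and mouse tumour fibroblasts, marks myofibroblastic tumour fibroblasts.

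Acta2 plus Tagln chose the cells, so their values are a description. The lowest contractile fibroblast had 24.6 UMIs per 10000 and the highest cell outside had 24.5. Going 10 cells inward the value was 25.6 and going 10 cells outward 23.7, and 111 fibroblasts lay within 20% of the limit, which therefore divides a continuous range. The median was 51.2 per 10000 in contractile fibroblasts and 1.99 in other fibroblasts, of which 259 (28.0%) had no UMI of either gene. Contractile fibroblasts were also deeper, with a median of 26798 UMIs and 4452 genes against 12503 UMIs and 2943 genes in other fibroblasts. The part of this depth in the comparisons below was not tested. Values after thinning cells to 2000 UMIs are given for a few genes. Thinning left out the 7 contractile and 54 other fibroblasts with fewer UMIs.

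The other markers of the label were present. In CPM, the usual counts-per-million scale applied to the summed UMIs of the contractile fibroblasts of a library, Col1a2, a chain of type I collagen that the fibroblast rule used, ranged from 8357 to 11684. Lrrc15, which no rule used, stood at 824, 797 and 941 CPM in contractile fibroblasts of the libraries labelled shPgk1 and at 613, 805 and 868 CPM in those of shNC. In other fibroblasts it stood at 505, 310 and 449 CPM in the libraries labelled shPgk1 and at 273, 314 and 384 CPM in shNC. Every contractile value lay above every value of other fibroblasts. The ratio averaged 1.13 ± 0.24 on the log2 scale (SD over 6 libraries, 5 CPM added), and 1.31 after thinning.

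Pericytes and smooth muscle cells also express Acta2 and Tagln. A comparison set of 74 barcodes with at least 20 Rgs5 UMIs per 10000 had 3.71 CPM of Lrrc15 and 1904 CPM of Col1a2. The pericyte gene Rgs5 split this set from the fibroblasts, so its differences from them in other pericyte and smooth muscle genes are partly set by the choice. Outside Rgs5, 8 pericyte markers summed to between 213 and 269 CPM in contractile fibroblasts, 101 to 249 CPM in other fibroblasts and 2983 CPM in the Rgs5-high set. Of 7 such markers at 5 CPM or more, 2 were higher and 1 lower in contractile than in other fibroblasts in 6 of 6 libraries. Over all genes outside the rule these shares were 9.51% and 10.1%. Cspg4 was the highest of them, with a log2 ratio of 1.33. Notch3, a pericyte receptor, stood at 427 CPM in the Rgs5-high set and did not exceed 12.3 CPM in any library of contractile fibroblasts. Smooth muscle myosin heavy chain Myh11 averaged 14.4 CPM in contractile fibroblasts and stood at 219 CPM in the Rgs5-high set. Desmin, Des, averaged 28.4 CPM against 339 CPM there, and the myosin light chain kinase gene Mylk 30.9 CPM against 807 CPM. The smooth muscle markers did not all follow. The list of 9 summed to between 355 and 867 CPM in contractile fibroblasts, 56.0 to 109 CPM in other fibroblasts and 967 CPM in the Rgs5-high set, and 5 of the 6 at 5 CPM or more were higher in contractile than in other fibroblasts in 6 of 6 libraries. Cnn1 and Actg2 made up much of that sum, at 147 CPM and 311 CPM in contractile fibroblasts against 28.2 CPM and 94.9 CPM in the Rgs5-high set.

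Per library, contractile fibroblasts numbered 36, 81 and 65 in the libraries labelled shPgk1 and 57, 81 and 143 in shNC. They made up 26.3, 33.5 and 35.1% of fibroblasts in the libraries labelled shPgk1 and 20.5, 37.5 and 43.3% in shNC. The groups overlapped, with means of 31.6 ± 4.71% and 33.8 ± 11.9% (SD, n = 3 each; two-sided exact permutation test, p = 0.8). The Wilson 95% intervals, which cover counting error only, ran from 19.6 to 34.2% in shPgk1 library 1 and from 38.1 to 48.7% in shNC library 3. The sign of this difference, -2.15 points, rests on single libraries: it was 0.52 points without shPgk1 library 1 and 2.63 points without shNC library 3. With 3 libraries against 3 the smallest p this test allows is 0.1.

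Of all kept barcodes, contractile fibroblasts were 0.537, 1.09 and 0.879% in the libraries labelled shPgk1 and 0.741, 1.31 and 2.09% in shNC (0.836 ± 0.280% and 1.38 ± 0.678%; SD, n = 3 each; exact permutation test, p = 0.3). Other fibroblasts were 1.77 ± 0.355% in the libraries labelled shPgk1 and 2.59 ± 0.368% in shNC. There the groups did not overlap (SD, n = 3 each; exact permutation test, p = 0.1). Shares of a suspension cannot tell fewer fibroblasts from more of another cell. Median depth over all kept barcodes was higher in the libraries labelled shPgk1, at 11240 ± 698 UMIs against 9139 ± 927 UMIs in shNC (SD, n = 3 each; exact permutation test, p = 0.1). In contractile fibroblasts alone it was 28831 ± 7569 UMIs in the libraries labelled shPgk1 and 28987 ± 5477 UMIs in shNC (SD, n = 3 each; exact permutation test, p = 0.9).

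**Figure D1:**
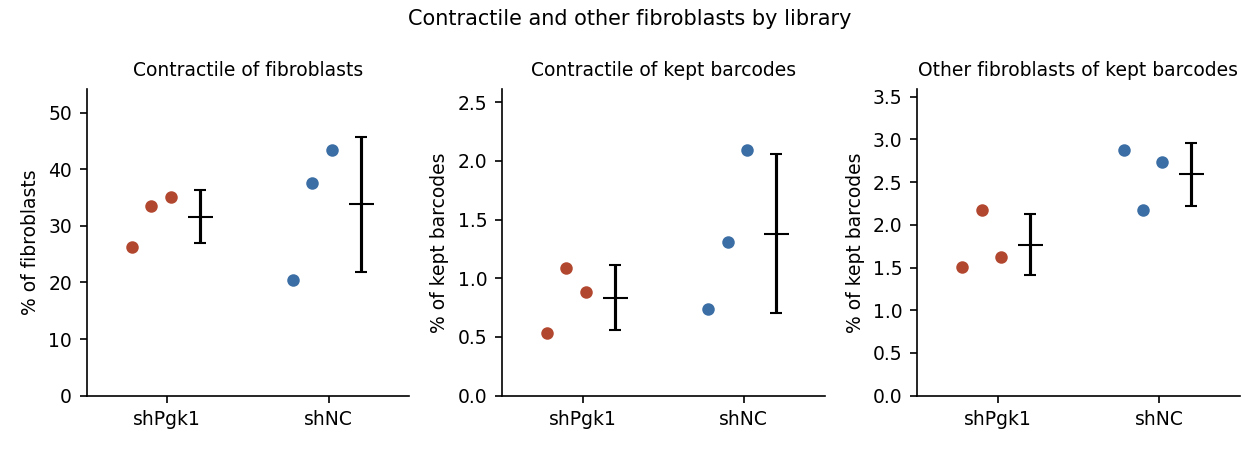
Share of contractile fibroblasts among fibroblasts (left) and among kept barcodes (middle), and of other fibroblasts among kept barcodes (right), in percent, for the 3 libraries labelled shPgk1 and the 3 shNC libraries (points), with the mean and SD beside them. Contractile shares overlap between the groups, while the shares of other fibroblasts do not.

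Set against other fibroblasts in the same library, the contractile fibroblasts stood apart by most of the actin and myosin genes listed. They also had low levels of inflammatory and steady-state genes, and about equal levels of the type I collagen chain gene Col1a1. These are descriptions, since the cells were picked by expression. The other type I chain gene, Col1a2, was used with Dcn to choose all fibroblasts, so its level is partly set by the rule. The 2457 genes at 50 CPM or more in the higher set include genes of the rule, such as Acta2 and Tagln, whose direction the choice fixed. Of these 2457, 587 (23.9%) were higher in contractile fibroblasts in 6 of 6 libraries and 362 (14.7%) were lower in 6 of 6. A mean log2 ratio of 1 or more was held by 33 of them (1.34%), and one of -1 or less by 69 (2.81%). Over all 9848 genes outside the rule at 5 CPM or more, 937 (9.51%) were higher in 6 of 6 libraries and 998 (10.1%) lower. Their median log2 ratio was -0.02.

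**Figure D2:**
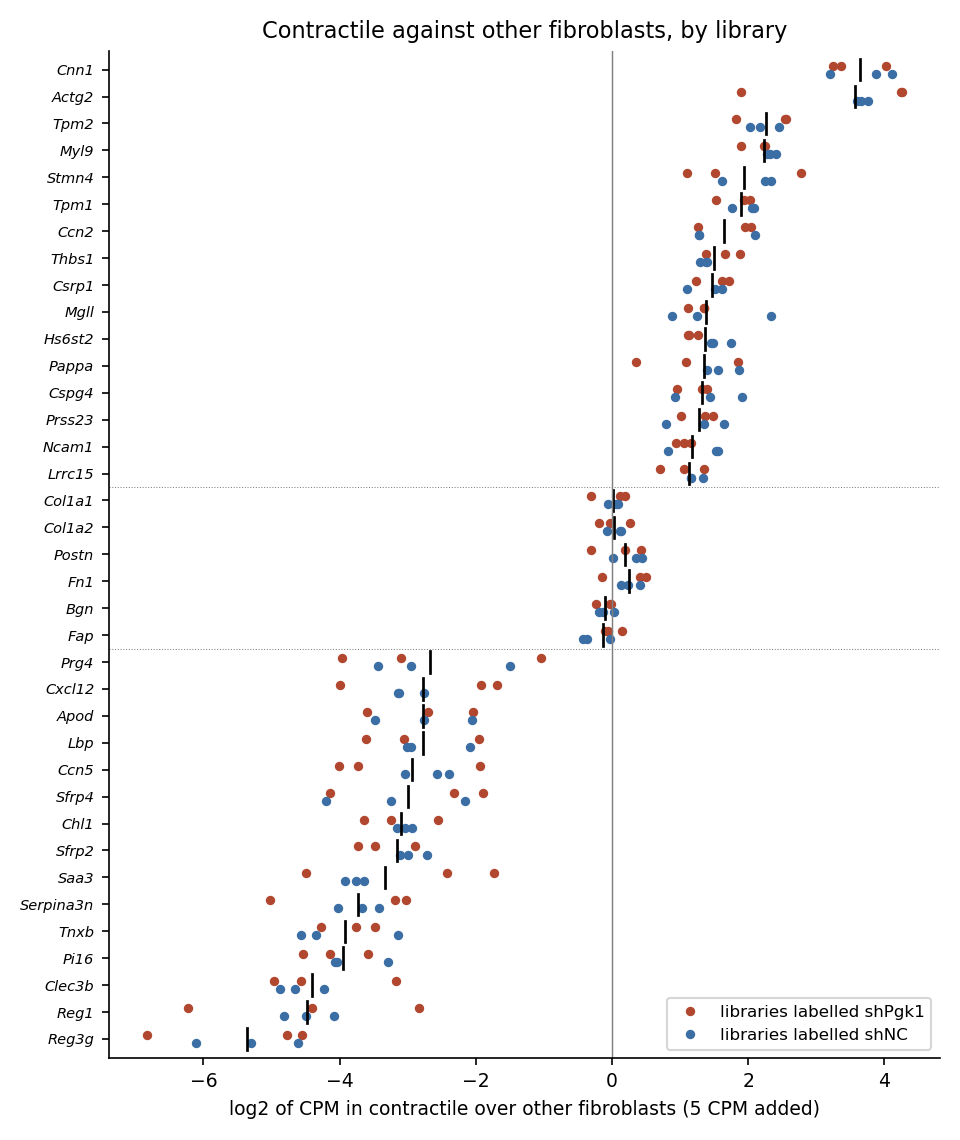
Log2 ratio of CPM in contractile over other fibroblasts (5 CPM added) in each of 6 libraries (points, by label) with the mean (bar), for the 15 highest and 15 lowest genes by the naming rule, Lrrc15 and 6 matrix or fibroblast genes. Cnn1 and Actg2 lie beyond 3 on average, Col1a1 and Col1a2 lie near 0, and Reg3g, Reg1 and Clec3b lie below -4. Col1a2 was used by the fibroblast rule.

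Of the contractile apparatus list outside the rule, 31 of 34 genes were higher in 6 of 6 libraries and none was lower in 6 of 6, with a median log2 ratio of 0.90. Cnn1, the gene of calponin, which binds actin and restrains myosin, stood at 79.5, 138 and 151 CPM in contractile fibroblasts of the libraries labelled shPgk1 and at 108, 240 and 166 CPM in those of shNC. In other fibroblasts Cnn1 reached at most 13.6 CPM. The mean log2 ratio was 3.64 ± 0.41 (SD over 6 libraries). The smooth muscle gamma actin gene Actg2 stood at 135, 409 and 306 CPM in the libraries labelled shPgk1 and at 219, 414 and 387 CPM in shNC, while other fibroblasts held 11.4 to 32.7 CPM. Its first shPgk1 library was low among the 6. Actg2 has near-identical paralogs, and no source used here says how reads shared by the actin genes were counted.

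Both genes were unevenly spread over the contractile fibroblasts. Cnn1 had no UMI in 45.4% of them and Actg2 none in 46.7%, against 92.7% and 86.9% of other fibroblasts. These shares are at unequal depth. At an equal 2000 UMIs per cell, Cnn1 was found in 5.56 to 22.5% of contractile fibroblasts per library and 0 to 2.86% of other fibroblasts. Actg2 was found in 22.8 to 41.7% of contractile fibroblasts per library and in 1.90 to 5.14% of other fibroblasts. In macrophages, a type that should lack both, Cnn1 was found in at most 1.65% and Actg2 in at most 0.97%. Macrophages here are barcodes with at least 20 C1q UMIs per 10000.

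The tropomyosin genes Tpm2 and Tpm1, whose products lie along actin filaments, had log2 ratios of 2.27 ± 0.31 and 1.90 ± 0.22. Tpm1 averaged 981 CPM in contractile fibroblasts and 259 CPM in other fibroblasts. Myl9, the regulatory light chain that switches myosin on, averaged 470 CPM and 97.0 CPM, a log2 ratio of 2.23 ± 0.18. Csrp1, a LIM protein of smooth muscle, followed at 1.47 ± 0.24. Housekeeping parts of the machinery were also higher, with log2 ratios of 0.97 ± 0.10 for the cytoplasmic actin Actb, 0.79 ± 0.07 for the nonmuscle myosin Myh9 and 0.93 ± 0.08 for the crosslinker Flna. Tpm3, at -0.02 ± 0.21, and Ppp1r12a, a subunit of myosin phosphatase, at 0.09 ± 0.14, did not stand apart from other fibroblasts beyond the spread over libraries.

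Promoters of this list were searched because most of its genes stood higher together. RefSeq promoters on GRCm38.p6, from 250 bases before to 50 bases after the start, were at hand for 33 of the 38 list genes. A CArG box with up to 1 mismatch in its middle letters lay in 8 of them (24.2%), against 2702 of all 27025 promoters, and an exact one in 5 (15.2%), against 425 (1.57%). GGAATG on either strand lay in 13 (39.4%), against 3955 (14.6%) of all. Among the 15 genes of highest ratio, 9 had a promoter entry, of which 1 held a CArG box and 2 GGAATG. Among the 15 of lowest ratio it was 1 and none of 10. The list is a chosen set of contractile genes, so its shares describe the list and not these cells. A match describes letters, not binding. The promoters of Acta2, Myl9 and Tpm1 are shown as the gene of the rule and as strong members with each motif, 5′ to 3′ on the gene's strand, with matches in capitals.
Acta2, chr19:34255324-34255623, minus strand, with CArG boxes of 1 mismatch each and GGAATG: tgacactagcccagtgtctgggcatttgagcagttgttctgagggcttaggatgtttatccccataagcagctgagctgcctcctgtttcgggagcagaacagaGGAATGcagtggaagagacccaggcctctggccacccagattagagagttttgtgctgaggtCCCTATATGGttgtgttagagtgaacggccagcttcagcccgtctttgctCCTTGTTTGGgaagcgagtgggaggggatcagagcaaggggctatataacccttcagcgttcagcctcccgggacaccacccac
Myl9, chr2:156775214-156775513, plus strand, with CArG boxes: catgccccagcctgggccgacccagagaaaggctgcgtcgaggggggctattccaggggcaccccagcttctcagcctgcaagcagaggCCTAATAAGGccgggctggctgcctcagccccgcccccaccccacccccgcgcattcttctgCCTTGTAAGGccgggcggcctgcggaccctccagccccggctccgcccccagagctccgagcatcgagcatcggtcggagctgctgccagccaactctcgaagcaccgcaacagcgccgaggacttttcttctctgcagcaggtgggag
Tpm1, chr9:67049164-67049463, minus strand, with GGAATG: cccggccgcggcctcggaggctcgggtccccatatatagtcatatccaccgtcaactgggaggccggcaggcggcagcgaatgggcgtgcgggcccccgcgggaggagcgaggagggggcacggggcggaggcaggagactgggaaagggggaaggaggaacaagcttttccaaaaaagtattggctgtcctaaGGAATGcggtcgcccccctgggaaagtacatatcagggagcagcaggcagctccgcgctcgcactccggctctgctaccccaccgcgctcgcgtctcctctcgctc
The promoters of Cnn1, Tpm2, Csrp1 and Lrrc15 held neither motif in this window.

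Of the regulators that sense actin, Srf (0.27 ± 0.42) and Mrtfa (0.08 ± 0.15) were close to other fibroblasts on the log2 scale, as were Yap1 (0.04 ± 0.34) and Tead1 (0.26 ± 0.24). Some of their targets differed more, while the 17 genes of the list had a median log2 ratio of 0.16. Ccn2, a matricellular growth factor and target of YAP and TEAD, averaged 956 CPM in contractile fibroblasts and 316 CPM in other fibroblasts, a log2 ratio of 1.65 ± 0.42. Ankrd1, another such target, had a ratio of 1.95 ± 1.00 and was higher in 5 of 6 libraries. Fhl1, a LIM protein of muscle, had 1.20 ± 0.56. In all, 4 of 17 genes of this list were higher in 6 of 6 libraries, and Ccn1, Amotl2 and Lats2 were not among them.

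Genes of the TGF-beta pathway went both ways. Of 22 ligand, latency, receptor and mediator genes, 6 were higher and 6 lower in 6 of 6 libraries, with a median log2 ratio of 0.03. The ligand genes Tgfb1 (0.81 ± 0.26) and Tgfb3 (0.76 ± 0.32) and Inhba, of the activin ligand (1.18 ± 0.67), were higher, as was Thbs1 (1.50 ± 0.22), whose product activates latent TGF-beta. The type II receptor gene Tgfbr2 (-0.88 ± 0.28), the coreceptor gene Tgfbr3 (-1.46 ± 0.48) and Ltbp1 and Ltbp4, which hold the latent ligand in matrix (-1.51 ± 0.24 and -1.38 ± 0.80), were lower. Among 15 TGF-beta target genes, 6 were higher, including the tenascin gene Tnc (1.10 ± 0.51). Postn (0.19 ± 0.29) and Fn1 (0.26 ± 0.24), of periostin and fibronectin, were not higher in 6 of 6 libraries.

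Matrix genes did not follow the contractile genes as a group. Of 19 collagen chain genes outside the rule, 2 were higher and 5 lower in 6 of 6 libraries, and the median log2 ratio was 0.01. Col1a1 stood at 12017, 14648 and 16383 CPM in contractile fibroblasts of the libraries labelled shPgk1 and at 12514, 13198 and 13538 CPM in those of shNC, over the same range as the 12391 to 14906 CPM of other fibroblasts. Col8a1 (0.83 ± 0.32) was higher, while the fibril chain gene Col3a1 (-0.67 ± 0.24) and Col14a1, of a fibril-associated collagen (-1.89 ± 0.52), were lower. Per cell, collagen chains made up a median of 326 UMIs per 10000 in contractile fibroblasts and 305 in other fibroblasts. This sum includes Col1a2, which the fibroblast rule used, so it is partly set by the rule. Of the small proteoglycans, Lum had -1.64 ± 0.21, and Dcn, which the fibroblast rule used, averaged 284 CPM against 1345 CPM. The elastic microfibril gene Mfap5 (0.74 ± 0.21) and the collagen crosslinking oxidase gene Loxl2 (0.87 ± 0.30) were higher. Of 20 matrix protease and inhibitor genes, 8 were lower, among them those of the gelatinase Mmp2 (-1.47 ± 0.31), stromelysin Mmp3 (-1.83 ± 0.65) and collagenase Mmp13 (-2.13 ± 1.09), and the metalloproteinase inhibitor gene Timp3 (0.89 ± 0.48) was higher.

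Of 14 integrin and focal adhesion genes, 6 were higher and 1 lower in 6 of 6 libraries, with a median log2 ratio of 0.17. Among the higher were the fibronectin receptor subunit Itga5 (0.88 ± 0.27), its partner Itgb1 (0.65 ± 0.19) and the adaptor Ilk (0.91 ± 0.16). Glycolysis genes also stood a little higher, 9 of 19 in 6 of 6 libraries, with a median log2 ratio of 0.32. Pgk1 was one of them, at 0.49 ± 0.36. Growth factor genes higher in contractile fibroblasts were Pdgfa (1.16 ± 0.27), Hbegf (1.15 ± 0.34) and Vegfa (0.60 ± 0.47), and those lower were Igf1 (-1.76 ± 0.43) and Vegfd (-2.08 ± 0.75), with the receptor gene Pdgfra (-1.02 ± 0.42). The remaining genes among the 15 highest were Stmn4, of a stathmin (1.93 ± 0.63), Mgll, of monoacylglycerol lipase (1.38 ± 0.50), Hs6st2, of a heparan sulfate sulfotransferase (1.36 ± 0.24), Pappa, of a protease of insulin-like growth factor binding proteins (1.35 ± 0.57), the proteoglycan gene Cspg4 (1.33 ± 0.36), the protease gene Prss23 (1.28 ± 0.32) and the adhesion gene Ncam1 (1.18 ± 0.30).

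Inflammatory and steady-state fibroblast genes were lower. Of 20 inflammatory fibroblast genes, 10 were lower and 3 higher in 6 of 6 libraries, with a median log2 ratio of -0.89, and of 11 steady-state genes 6 were lower and none higher, with a median of -0.67. Pi16, a marker of fibroblasts across resting tissues, stood at 16.8, 33.7 and 32.7 CPM in contractile fibroblasts of the libraries labelled shPgk1 and at 22.5, 25.7 and 14.1 CPM in those of shNC. Other fibroblasts held 182 to 872 CPM, a log2 ratio of -3.95 ± 0.44. The acute phase gene Saa3 averaged 196 CPM in contractile fibroblasts and 1931 CPM in other fibroblasts (-3.33 ± 1.03), complement C3 249 CPM and 1292 CPM (-2.25 ± 1.04), and the chemokine gene Cxcl12 15.7 CPM and 148 CPM (-2.77 ± 0.86). The Reg family lectin genes Reg3g and Reg1 averaged 4.36 CPM and 5.41 CPM in contractile fibroblasts, against 417 CPM and 268 CPM in other fibroblasts.

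The other genes among the 15 lowest were Clec3b, of tetranectin (-4.41 ± 0.66), Tnxb, of tenascin-X (-3.93 ± 0.56), the serpin gene Serpina3n (-3.72 ± 0.73), the Wnt-binding Sfrp2 (-3.16 ± 0.38) and Sfrp4 (-2.99 ± 1.02), the adhesion gene Chl1 (-3.10 ± 0.36), the matricellular Ccn5 (-2.94 ± 0.80), Lbp, whose product binds lipopolysaccharide (-2.78 ± 0.63), the lipocalin gene Apod (-2.77 ± 0.67) and Prg4, of lubricin (-2.67 ± 1.14). Not every inflammatory gene was lower. The chemokine gene Cxcl14 averaged 5338 CPM in contractile fibroblasts and 3324 CPM in other fibroblasts and was higher in 6 of 6 libraries (0.64 ± 0.30), as were the cytokine gene Lif (0.67 ± 0.55) and the hyaluronan synthase gene Has2 (0.77 ± 0.50). Il6 (0.11 ± 0.80) and Ccl7 (-0.01 ± 0.24) lay within the spread over libraries.

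Across bands of Acta2 plus Tagln, pooled over libraries, the genes took different paths. Cnn1 stood at 3.21 CPM in fibroblasts with no UMI of either gene, 12.9 CPM in the band just under the limit, and 49.3, 85.2 and 312 CPM in contractile fibroblasts split into 3 equal bands from low to high. Lrrc15 stood at 95.2 CPM with no UMI, 571 CPM in the band below the limit, and 621, 847 and 950 CPM in the contractile bands. Tnc had reached 1378 CPM in the band below the limit and held 2058, 2060 and 1913 CPM in the contractile bands. Saa3 was at 3024 CPM with no UMI, 652 CPM in the band below the limit, and 245, 144 and 151 CPM in the contractile bands. Median depth differed between bands, from 5476 UMIs with no UMI of either gene to 31046 UMIs in the highest contractile band, and its part was not tested.

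**Figure D3:**
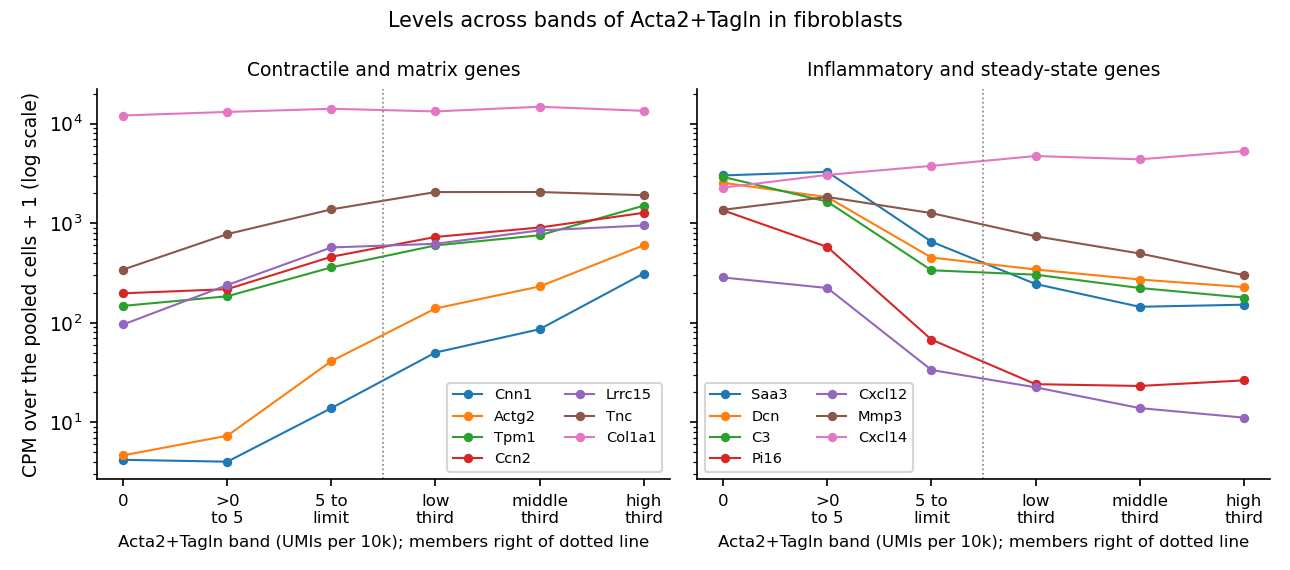
CPM plus 1 (log scale) over pooled fibroblasts in 6 bands of Acta2 plus Tagln UMIs per 10000, from 0 at the left to the contractile fibroblasts of highest value at the right, for contractile and matrix genes (left) and inflammatory and steady-state genes (right). Cnn1 is at 3.21 CPM in the leftmost band and 312 CPM in the rightmost, and Col1a1 stays between 12094 and 14810 CPM. Pi16 is at 66.8 CPM in the band from 5 UMIs per 10000 to the limit, against 1345 CPM with no UMI of either gene.

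Next, contractile fibroblasts of the libraries labelled shPgk1 were set against those of shNC. The targeted gene was not lower. Pgk1 stood at 458, 380 and 509 CPM in contractile fibroblasts of the libraries labelled shPgk1 and at 386, 564 and 415 CPM in those of shNC, with a log2 fold of -0.02 ± 0.15 (SE; edgeR quasi-likelihood test, adjusted p = 0.993). The sign turned without shPgk1 library 2 (0.08) or shNC library 2 (0.17). Over all kept barcodes it stood at 324, 324 and 349 CPM in the libraries labelled shPgk1 and at 350, 340 and 313 CPM in shNC. In barcodes with at least 12 epithelial UMIs per 10000, where tumour cells fall, it stood at 244, 292 and 317 CPM in the libraries labelled shPgk1 and at 279, 244 and 224 CPM in shNC. The groups overlapped in every set, so the libraries are named by their labels throughout.

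Of 9571 genes tested in summed contractile fibroblasts, 1 was lower in the libraries labelled shPgk1 (0.0104%) and 0 were higher (0.0%) at a Benjamini-Hochberg adjusted p of 0.05. At an unadjusted p of 0.05, 276 (2.88%) were higher and 418 (4.37%) lower, together 7.25%, and DESeq2 called 0. Groups did not overlap for 522 genes above (5.45%) and 625 below (6.53%). The called gene was Gm14015, which falls outside the naming rule and was singled out after its values were seen. It had 0, 1 and 0 UMIs in contractile fibroblasts of the libraries labelled shPgk1 and 50, 41 and 74 UMIs in those of shNC. The ratio of its summed counts per total was 0.00991 (exact 95% interval 0.00025 to 0.0560, counting error only), with edgeR adjusted p = 8.45e-05, while DESeq2 gave no adjusted p. The same split was seen outside these cells. Other fibroblasts had 0, 2 and 0 UMIs in the libraries labelled shPgk1 and 144, 40 and 77 UMIs in shNC, and all kept barcodes had 10, 24 and 3 UMIs against 4229, 1762 and 1988 UMIs.

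Acta2 and Tagln chose the cells, so their levels in the groups are a description. Acta2 stood at 1772, 2417 and 2265 CPM in the libraries labelled shPgk1 and at 2213, 2550 and 2174 CPM in shNC. Tagln stood at 3032, 4110 and 4176 CPM in the libraries labelled shPgk1 and at 4531, 5178 and 4087 CPM in shNC. Both sets of values overlapped. Lrrc15, outside the rule, had 0.16 ± 0.13 (edgeR adjusted p = 0.862). Of 36 contractile apparatus genes tested, Acta2 and Tagln included, 0 were called and 22 lay above 0, with a median log2 fold of 0.03. Of 20 collagen chain genes 0 were called, with a median of 0.11. All genes tested had a median of 0.01. At an unadjusted p of 0.05 the contractile list held 0 higher and 2 lower genes and the collagen list 1 higher and 0 lower. Over all genes tested this share was 7.25%. Without shPgk1 library 2, 25 of 36 contractile genes lay below 0, with a median of -0.07. All 6 smooth muscle markers tested, some of them also in the contractile list, lay below 0 in the main fit, with a median of -0.36.

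**Figure D4:**
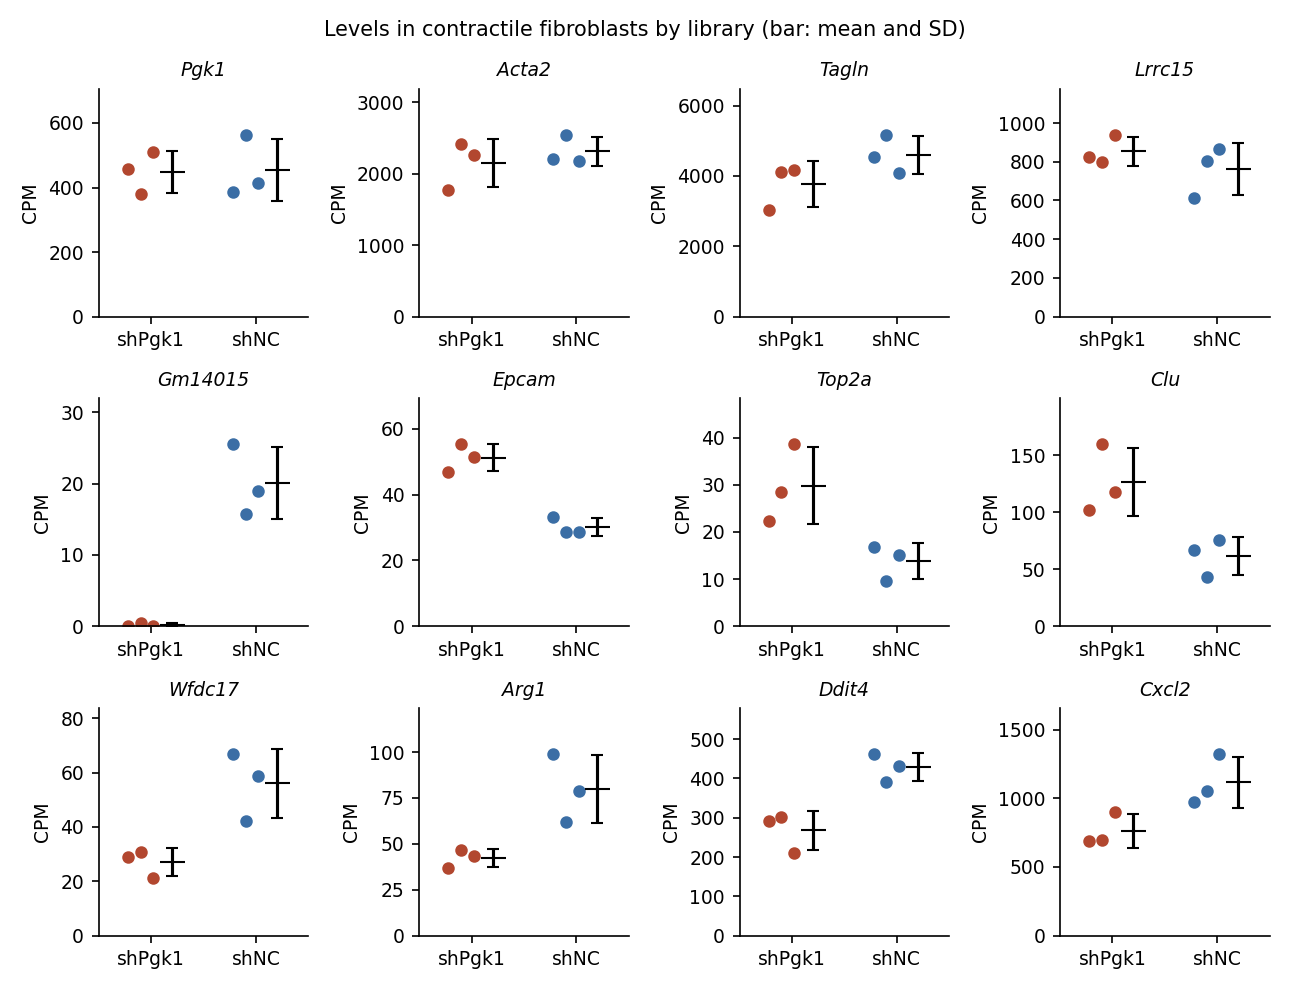
CPM of 12 genes in contractile fibroblasts of the 3 libraries labelled shPgk1 (left in each panel) and the 3 shNC libraries (right), with mean and SD. Acta2, Lrrc15 and Pgk1 overlap between the groups, Gm14015 is near 0 in the libraries labelled shPgk1, and no other gene shown passed the adjusted threshold.

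The genes of smallest p that were higher in the libraries labelled shPgk1 missed the threshold. They were Itih5 of the hyaluronan-binding inter-alpha-trypsin inhibitor family (log2 fold 0.96 ± 0.20), the topoisomerase gene Top2a (1.15 ± 0.25), clusterin Clu (1.04 ± 0.21) and the phosphatase regulator gene Ppp1r10 (0.84 ± 0.19). Their edgeR adjusted p-values ran from 0.186 to 0.189. In each of these 4 the groups did not overlap. Epcam, an epithelial gene that the rule caps and that is therefore only described, stood at 47.0, 55.4 and 51.4 CPM in the libraries labelled shPgk1 and at 33.2, 28.8 and 28.5 CPM in shNC. The 6 epithelial markers outside the rule summed to 250, 365 and 341 CPM in the libraries labelled shPgk1 and to 240, 185 and 252 CPM in shNC. Their part in these values was not tested.

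Those lower with the smallest p were Wfdc17, at 29.1, 30.8 and 21.4 CPM in the libraries labelled shPgk1 and 67.0, 42.2 and 58.8 CPM in shNC (-1.06 ± 0.21), the carboxypeptidase gene Agbl3 (-1.18 ± 0.24), the arginase gene Arg1 (-0.89 ± 0.18), the amino acid transporter gene Slc7a2 (-1.02 ± 0.21) and the stress-induced mTOR inhibitor gene Ddit4 (-0.68 ± 0.15), each with edgeR adjusted p = 0.186. Arg1 averaged 842 CPM in macrophages, Wfdc17 483 CPM and Slc7a2 115 CPM. All 9 tested macrophage markers also lay below 0. The 10 markers summed to 2480, 1719 and 2046 CPM in contractile fibroblasts of the libraries labelled shPgk1 and to 3063, 2075 and 3548 CPM in those of shNC, 5.75 to 11.4% of their level in macrophages of the same library. Neutrophil markers summed to 21.3, 291 and 63.2 CPM in the libraries labelled shPgk1 and to 482, 250 and 290 CPM in shNC. The part of macrophage and neutrophil RNA in the lower genes was not tested.

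Cell cycle genes lay higher as a list without a call. Of 19 tested, 0 were called by edgeR and by DESeq2. An unadjusted p of 0.05 or less with a positive fold was held by 8, against 2.88% of all genes tested. In all, 18 of 19 lay above 0, with a median log2 fold of 0.63. Summed over the list they stood at 435, 458 and 521 CPM in the libraries labelled shPgk1 and at 285, 342 and 312 CPM in shNC, without overlap. Ube2c, of mitotic ubiquitination, had 48.1, 82.4 and 53.2 CPM in the libraries labelled shPgk1 and 13.3, 35.3 and 28.5 CPM in shNC (1.24 ± 0.34, edgeR adjusted p = 0.457). Tyms, of thymidylate synthesis, averaged 39.6 ± 2.47 CPM in the libraries labelled shPgk1 and 25.1 ± 3.73 CPM in shNC without overlap (SD, n = 3 each; log2 fold 0.68 ± 0.18, edgeR adjusted p = 0.339). Cells with a UMI of the proliferation gene Mki67 numbered 6, 15 and 17 in the libraries labelled shPgk1 and 13, 13 and 28 in shNC, which is 16.7, 18.5 and 26.2% against 22.8, 16.0 and 19.6%, and these overlap. Among a random sample of the macrophages of the same libraries 20.6 to 33.5% had one, and after thinning 0 to 5.00% of contractile fibroblasts and 2.74 to 5.88% of macrophages. The same order stood outside these cells. Macrophages held 606, 618 and 725 CPM over the list in the libraries labelled shPgk1 and 480, 530 and 476 CPM in shNC, and all kept barcodes 1169, 1145 and 1159 CPM in the libraries labelled shPgk1 and 836, 840 and 866 CPM in shNC, both without overlap. In other fibroblasts the groups overlapped, at 384, 549 and 462 CPM in the libraries labelled shPgk1 and 493, 414 and 404 CPM in shNC. The part of RNA from other cells in the contractile values was not tested. In the top 1 in 6 of fibroblasts by Acta2 plus Tagln, 7 of 11 cell cycle genes tested lay above 0 with a median of 0.20, and below 10 immune UMIs per 10000 a single gene was left to test (0.36). Below 40 immune UMIs per 10000, 18 of 19 lay above 0 with a median of 0.56. With Col1a2 plus Dcn at 60 per 10000 it was 17 of 18, with a median of 0.48. The median ran from 0.45 to 0.68 over the libraries left out in turn.

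The series title names NF-kB p65, whose gene Rela had 0.13 ± 0.15. Of 17 NF-kB component and target genes, 0 were called, 14 lay below 0 and the median log2 fold was -0.31. The direction turned among fibroblasts with fewer than 10 immune UMIs per 10000, where 7 of 13 lay above 0 with a median of 0.11. That setting kept 1, 48 and 34 contractile fibroblasts in the libraries labelled shPgk1 and 2, 16 and 4 in shNC. With Col1a2 plus Dcn at 60 per 10000 the median was -0.16. In the top sixth 16 of 17 lay below 0 with a median of -0.30. Below 40 immune UMIs per 10000 it was 13 of 17, with a median of -0.27. At an unadjusted p of 0.05, 3 of the 17 were lower, against 4.37% of all genes tested. The inhibitor gene Nfkbia, itself an NF-kB target, stood at 1345, 1517 and 1603 CPM in the libraries labelled shPgk1 and at 1619, 1914 and 1974 CPM in shNC (-0.30 ± 0.11, edgeR adjusted p = 0.526). The neutrophil chemokine gene Cxcl2 stood at 686, 698 and 903 CPM in the libraries labelled shPgk1 and at 972, 1051 and 1326 CPM in shNC (-0.55 ± 0.13, edgeR adjusted p = 0.216), and macrophages averaged 2997 CPM. The cytokine gene Il6 stood at 52.6, 50.1 and 32.3 CPM in the libraries labelled shPgk1 and at 67.0, 90.9 and 60.9 CPM in shNC (-0.73 ± 0.21, edgeR adjusted p = 0.380), and macrophages averaged 11.1 CPM. The groups did not overlap for these 3 genes. In all, 6 of the 17 lay below without overlap, against 6.53% of all genes tested.

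In other lists, single genes stood apart without a call. The collagenase gene Mmp13 had 128, 345 and 201 CPM in the libraries labelled shPgk1 and 66.5, 23.4 and 41.4 CPM in shNC (2.41 ± 0.56, edgeR adjusted p = 0.518). The receptor gene Tgfbr1 had 53.7, 38.5 and 37.3 CPM in the libraries labelled shPgk1 and 27.1, 24.6 and 30.6 CPM in shNC (0.60 ± 0.19, edgeR adjusted p = 0.425). Tgfbi, of a TGF-beta-induced matrix protein, had 32.5, 37.1 and 38.2 CPM in the libraries labelled shPgk1 and 52.7, 56.4 and 68.3 CPM in shNC (-0.71 ± 0.16, edgeR adjusted p = 0.189), and macrophages averaged 569 CPM. The endoplasmic reticulum chaperone gene Hspa5 had 0.37 ± 0.11 and the small heat shock gene Hspb1 -0.50 ± 0.14. Of 19 glycolysis genes 0 were called by edgeR and 0 had an unadjusted p of 0.05 or less, with a median log2 fold of -0.04.

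Whether the label effect differed between contractile and other fibroblasts was tested with an interaction term over the 12 sums, with library as a term. Of 10523 genes, 1 was called lower (0.0095%) and 0 higher, and 520 had an unadjusted p of 0.05 or less (4.94%). The called gene was Crispld2, of a secreted cysteine-rich protein. It stood at 189, 208 and 211 CPM in contractile fibroblasts of the libraries labelled shPgk1 and at 217, 276 and 248 CPM in those of shNC, an effect of -0.29 ± 0.13 on the log2 scale. In other fibroblasts it stood at 272, 229 and 268 CPM in the libraries labelled shPgk1 and at 129, 160 and 181 CPM in shNC, an effect of 0.68 ± 0.14. The groups did not overlap in either set, and the directions were opposite. The difference was -0.95 ± 0.14 (SE; edgeR adjusted p = 0.00814). It lost the call without shNC library 1 (edgeR adjusted p = 0.103) or 2 (0.129) and with DESeq2 (0.0559), and also with stricter cell limits (Col1a2 plus Dcn at 60 per 10000, fewer than 10 immune UMIs per 10000, or the top sixth), and ranged from -1.05 to -0.89 over the libraries left out.

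Crispld2 was followed by genes that missed the threshold. The stromelysin-3 gene Mmp11 stood at 5.60, 7.23 and 10.5 CPM in contractile fibroblasts of the libraries labelled shPgk1 and at 9.71, 12.3 and 13.6 CPM in those of shNC. In other fibroblasts it stood at 50.9, 52.0 and 63.2 CPM in the libraries labelled shPgk1 and at 22.4, 23.1 and 31.1 CPM in shNC, and the difference of effects was -1.64 ± 0.29 (edgeR adjusted p = 0.0694). Lower differences were also held by Il33, an alarmin gene (-1.03 ± 0.21), Col7a1, of anchoring fibrils (-0.68 ± 0.14), and Mrps10, of the mitochondrial ribosome (-0.97 ± 0.25). Higher ones were held by the immediate early gene Fosb (0.55 ± 0.11), Ube2c (1.77 ± 0.30), Lif (0.95 ± 0.21), Top2a (1.14 ± 0.26) and the kinetochore gene Spc24 (1.08 ± 0.25). For Ube2c, other fibroblasts held 31.0, 53.8 and 55.5 CPM in the libraries labelled shPgk1 and 62.9, 83.4 and 55.5 CPM in shNC. Of the 21 cell cycle genes in this test, 7 had a higher difference at an unadjusted p of 0.05 (2.71% over all genes) and 0 were called by edgeR.

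**Figure D5:**
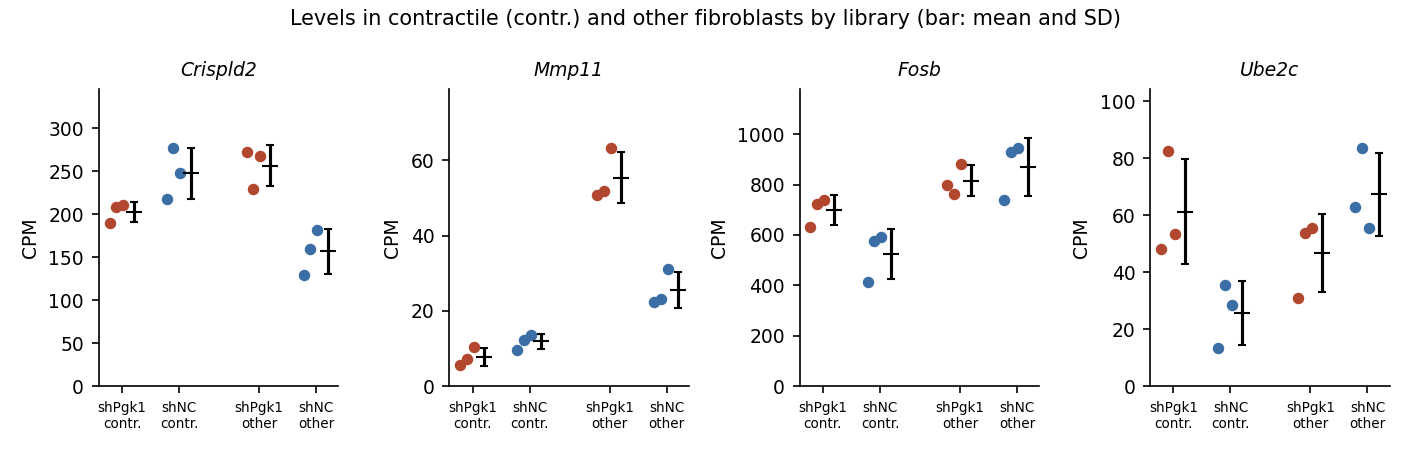
CPM of Crispld2, Mmp11, Fosb and Ube2c by library in contractile (contr.) and other fibroblasts, with the libraries labelled shPgk1 left of shNC in each set, and mean and SD. Crispld2 lies lower in contractile and higher in other fibroblasts of the libraries labelled shPgk1, and it is the one gene shown that passed the adjusted threshold.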

How the data were processed

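Raw UMI counts per gene and barcode were used as deposited, 1 matrix per library, made with PISA 0.12 per the file headers. The submitters' processing notes name Seurat 4 and GRCh38, although the gene names are mouse symbols, so the build behind the counts is unsettled, and no source used here states strand or multi-mapping. Library totals ran from 78778073 to 128933960 counts. Of 42902 barcodes, 643 had fewer than 300 genes or over 20% mitochondrial UMIs and were dropped. Scrublet in scanpy 1.11.5 scored 2 contractile fibroblasts above 0.25, and they were kept. No count vector occurred in 2 libraries, and 3 of 460 distinct barcode names of members were shared. Libraries were grouped by their titles. The design text calls them biological replicates without naming cultures or animals, so the p-values may reflect technical spread alone.

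Counts were summed per library and set, and tested with edgeR 4.0.16 in R 4.3.3 (robust quasi-likelihood fit, TMM, filterByExpr, Benjamini-Hochberg adjustment, threshold 0.05), with DESeq2 1.42.0 as an alternative. Tests on simulated data were run after the fits and took their dispersion from them. Same-numbered libraries deviated with correlations of 0.009, 0.043 and -0.074 over genes, so numbers were not taken as pairs. Named genes were Pgk1, rule genes, Lrrc15, members of the lists, the 15 largest log2 ratios in each direction at 50 CPM or more with one sign in 6 libraries, and the 5 smallest p in each direction at a mean of 20 CPM or more for the tests (Gm-numbered, Rik, mitochondrial and pseudogene names left out). The contractile fibroblasts, lists and tests were chosen with earlier results of these data known.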

Additional observations from a re-analysis of the deposited data

Results flagged for a closer look

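The effect of the shPgk1 label on Crispld2 differed between contractile and other fibroblasts in a test of the difference itself (interaction term, edgeR quasi-likelihood, adjusted p = 0.00814 over 10523 genes). The log2 difference was -0.95 ± 0.14 (SE), with -0.29 ± 0.13 in contractile fibroblasts and 0.68 ± 0.14 in other fibroblasts, and 3 of 3 libraries labelled shPgk1 lay below every shNC library in the contractile set and above every one in the other set.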

How the results depend on the processing

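The difference in the contractile share of fibroblasts (-2.15 points) changed sign without shPgk1 library 1 (0.52 points) and without shNC library 3 (2.63 points), with a range of -8.79 to 2.63 over the libraries left out in turn, and was -14.4 points (exact permutation p = 0.1) under the immune limit given next. The difference in the share of kept barcodes (-0.543 points) ranged from -0.862 to -0.187 over these, and was 0.260 points when fibroblasts with 10 or more immune UMIs per 10000 were left out, a setting that kept 1, 48 and 34 contractile fibroblasts in the libraries labelled shPgk1 and 2, 16 and 4 in shNC. Genes called between the groups, 1 in the fit reported, numbered 1 to 4 with a library left out, 123 with no filter on low counts (28 higher, 95 lower), 0 with DESeq2, 0 under the immune limit of 10 and 2 in the top sixth. With the replicate number as a block, 27 genes were called (5 higher, 22 lower). Same-numbered libraries did not deviate together, so the number is not shown to pair them. Genes called for the difference of effects, 1 in the fit reported, numbered 0 to 5 with a library left out, 32 with no filter (18 higher, 14 lower), 2 with DESeq2, 2 with the top 1 in 3 taken within each library, and 0 with Col1a2 plus Dcn at 60 per 10000 or under the immune limit of 10. The fold of Pgk1 (-0.02) was 0.08 without shPgk1 library 2 and 0.17 without shNC library 2, with a range of -0.13 to 0.17 over the libraries left out, and the difference for Il33 (-1.03) was 0.33 under the immune limit and 0.0076 in the top sixth. Crispld2 (-0.95) stayed negative in every setting and missed the threshold in 6 of them, with -0.57 under the immune limit, -0.76 in the top sixth and -1.19 at the higher collagen limit. For 31 named genes, the log2 ratio of contractile over other fibroblasts was recomputed under other settings. It stayed within its SD over libraries of the reported value in 243 cases and moved further in 36. The looser immune limit of 40 per 10000 was chosen after seeing the data. Causes were not tested, beyond the few cells or libraries that some settings leave.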
